A study of Arabidopsis thaliana with 12 samples.

Results

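Purine nucleotides are built step by step on a phosphoribosyl backbone until inosine monophosphate (IMP) is formed, and IMP is then turned into AMP or GMP. The folate cofactor 10-formyltetrahydrofolate donates carbon to the ring at 2 of these steps, so the pathway depends on folate. The 4 genes followed here are AT2G35040, AT1G16350, AT1G63660 and AT3G12290 of Arabidopsis thaliana. AT2G35040 encodes the enzyme with AICAR transformylase and IMP cyclohydrolase activity, which adds the last folate carbon and closes the ring to IMP. AT1G16350 encodes an IMP dehydrogenase, which starts the branch to GMP, and AT1G63660 encodes GMP synthase, which completes it. AT3G12290 encodes a methylenetetrahydrofolate dehydrogenase, an enzyme on the way to the 10-formyl form of folate. They were taken by locus, and each had 1 probe set that the platform annotation pairs with a single gene (267421_at, 262754_at, 260294_at and 256263_at), so that 4 of 4 were measured, among 13436 probe sets of 1 gene with a current locus.

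Wild-type whole seedlings of the Columbia ecotype were profiled on 12 Affymetrix arrays in 4 treatments of 3 biological replicates: 10 mM sucrose with 0.2 µM sulfamethoxazole (SMX), 10 mM sucrose, 0.2 µM SMX, and no addition (control). SMX is a sulfonamide that blocks dihydropteroate synthase, a step of folate synthesis. All groups shared the liquid MS medium, 3 days at 4 °C, 6 h of light and 3 days at 21 °C. Plates were foil-wrapped for the cold, and the labels do not say whether the later growth was in light or dark. Values are log2 expression values, and a log2 difference of 1 is a doubling of the signal. The table spans 2.118 to 15.67 with its lowest value as a floor, and all 4 probe sets lay far above that floor on every array.

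Of the 8 root genes chosen to check the tissue 2 could be matched, of 5 seed genes 1, and of 6 cotyledon and shoot genes 0. EXPA18, an expansin of root hairs, read 9.26 to 9.66 with sucrose plus SMX, 7.96 to 8.61 with sucrose, 4.66 to 5.46 with SMX and 3.77 to 4.66 in the control. EXPA7, its root hair paralog, read 7.0 to 7.98, 5.68 to 6.67, 3.01 to 3.38 and 3.37 to 3.73 in the same order of treatments. OLEO3, a seed oil-body protein, lay between 8.54 and 9.37 over the 12 arrays. In whole seedlings a different share of a cell type and a different RNA level per cell cannot be told apart, and the part of root hair cells in the results was not tested.

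The arrays with sucrose also differed in labelling. The spike score, the log2 excess of 3′ over 5′ control signal averaged over the Bacillus transcripts dap, lys and phe, was 0.72 to 1.44 with sucrose plus SMX, 0.78 to 1.58 with sucrose, 4.24 to 7.45 with SMX and 3.95 to 6.31 in the control. The actin score, the same difference for actin, was 0.95 to 1.97 over the 6 arrays with sucrose and 3.49 to 7.99 over the 6 without. Neither score overlapped between arrays with and without sucrose, so the sucrose differences of the 4 genes, the gaps between them and the named pathway genes are also given from fits with a score as covariate. Because of that separation, a call lost in such a fit does not tell sucrose from labelling. Over the alternative fits that keep all arrays per treatment, the number of all probe sets called for sucrose alone fell from 5336 to as low as 65.

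**Figure D1:**
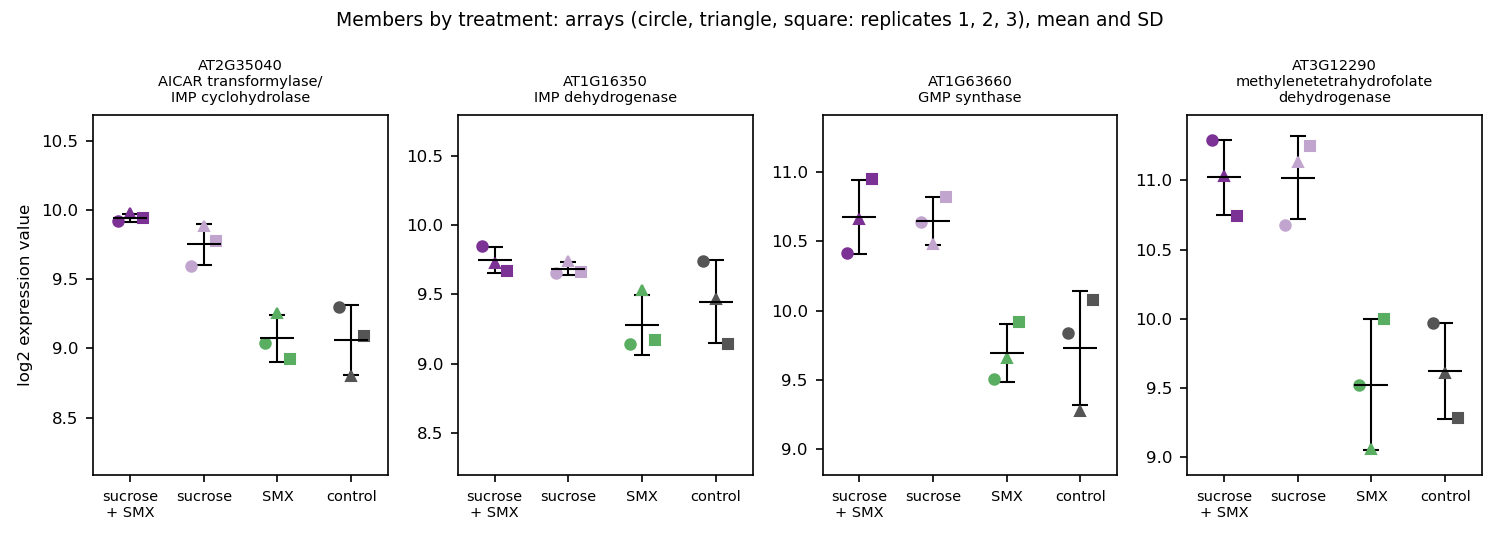
Log2 expression value (y axis) of the 4 probe sets in each treatment (x axis). Points are arrays, with a circle, triangle or square for replicate 1, 2 or 3, and bars give the mean and SD of 3 arrays. For AT2G35040, AT1G63660 and AT3G12290 all 6 arrays with sucrose lie above all 6 without it, while control replicate 1 of AT1G16350, at 9.74, lies among the sucrose arrays.

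The final step to IMP read higher wherever sucrose was given. AT2G35040 had log2 values of 9.92, 9.97 and 9.94 with sucrose plus SMX and 9.59, 9.89 and 9.77 with sucrose. It had 9.04, 9.26 and 8.92 with SMX and 9.30, 8.80 and 9.09 in the control. The 6 arrays with sucrose did not overlap the 6 without it, and the closest of them were 0.29 apart. The same separation with the sucrose arrays on top was seen for 12.8% of all 22746 probe sets tested.

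The group means of AT2G35040 were 9.94 ± 0.028 with sucrose plus SMX, 9.75 ± 0.15 with sucrose, 9.07 ± 0.17 with SMX and 9.06 ± 0.25 in the control (SD, n = 3 each). With sucrose alone it rose by a log2 difference of 0.69 (SE 0.134), or 1.61-fold with a 95% interval of 1.31 to 1.99 (limma over all probe sets, Benjamini-Hochberg adjusted p = 0.00776). In seedlings that also received SMX the sucrose difference was 0.87 (SE 0.134), or 1.83-fold, with a limma adjusted p = 0.00158. Sucrose plus SMX exceeded the control by 0.88 (limma adjusted p = 0.00209). With the spike score as covariate these 3 differences were 0.65, 0.83 and 0.84 with SEs of 0.278, 0.313 and 0.275, and none was called (limma adjusted p = 0.436, 0.248 and 0.212). With the actin score they were 0.46, 0.59 and 0.64, also not called (limma adjusted p = 0.476, 0.356 and 0.271).

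GMP synthase also read higher with sucrose. AT1G63660 had 10.42, 10.66 and 10.95 with sucrose plus SMX and 10.64, 10.48 and 10.82 with sucrose. It had 9.50, 9.66 and 9.92 with SMX and 9.84, 9.28 and 10.08 in the control. All 6 arrays with sucrose were again above all 6 without it, by at least 0.34.

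AT1G63660 averaged 10.65 ± 0.17 with sucrose alone and 9.73 ± 0.41 in the control (SD, n = 3 each), a rise of 0.92 (SE 0.22), or 1.89-fold with a 95% interval of 1.33 to 2.68 (limma, Benjamini-Hochberg adjusted p = 0.0184). This call ended without sucrose replicate 3 (difference 0.83, limma adjusted p = 0.0674). In the presence of SMX the difference was 0.98 (SE 0.22; limma adjusted p = 0.00922), between 10.68 ± 0.27 with sucrose plus SMX and 9.70 ± 0.21 with SMX (SD, n = 3). Sucrose plus SMX exceeded the control by 0.95 (limma adjusted p = 0.0135). The spike score as covariate left differences of 1.18, 1.29 and 1.21 with SEs of 0.444, 0.501 and 0.441, and the actin score left 0.66, 0.66 and 0.67. None of these was called (limma adjusted p from 0.258 to 0.599).

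AT1G16350, an IMP dehydrogenase of the step between the other 2 purine enzymes, moved least with sucrose of the genes followed here. AT1G16350 had 9.85, 9.73 and 9.67 with sucrose plus SMX and 9.66, 9.74 and 9.66 with sucrose. It had 9.14, 9.53 and 9.17 with SMX and 9.74, 9.46 and 9.14 in the control. The sucrose arrays lay close together, and control replicate 1 was as high as they were.

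The difference of AT1G16350 was 0.24 (SE 0.152; 95% interval −0.11 to 0.58) for sucrose alone and 0.30 (SE 0.152; −0.044 to 0.65) for sucrose plus SMX against the control, neither called by limma (adjusted p = 0.323 and 0.19). With the spike score as covariate these were 0.19 and 0.25, with the actin score 0.15 and 0.21, also not called (limma adjusted p from 0.857 to 1). Without control replicate 1 the difference of sucrose plus SMX from the control was 0.45 and was called (limma adjusted p = 0.0411). Between sucrose plus SMX, at 9.75 ± 0.093, and SMX, at 9.28 ± 0.22 (SD, n = 3 each), it rose by 0.47 (SE 0.152), or 1.38-fold with a 95% interval of 1.09 to 1.76 (limma adjusted p = 0.0433). That call ended when any of 9 single arrays was left out (each sucrose plus SMX replicate, each sucrose replicate, SMX replicate 1 or 3, or control replicate 2; values 0.40 to 0.51, limma adjusted p from 0.0614 to 0.132). It also ended after quantile normalization (0.35, limma adjusted p = 0.0758), with a covariate, at 0.41 for the spike score (limma adjusted p = 0.656) and 0.36 for the actin score (limma adjusted p = 0.702). The second IMP dehydrogenase locus, AT1G79470, averaged 7.20 with sucrose plus SMX, 7.17 with sucrose, 6.96 with SMX and 6.57 in the control and was called in no contrast. Its difference from the control was 0.60 (SE 0.237) with sucrose alone and 0.62 (SE 0.237) with sucrose plus SMX (limma adjusted p = 0.107 and 0.086). Both were larger than those of AT1G16350. Between sucrose plus SMX and SMX the difference of AT1G79470 was 0.24 (limma adjusted p = 0.51), smaller than that of AT1G16350. Whether either probe set also binds the paralog's transcript was not tested.

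The folate enzyme showed the widest separation. AT3G12290 had 11.29, 11.03 and 10.74 with sucrose plus SMX and 10.68, 11.13 and 11.25 with sucrose. It had 9.52, 9.06 and 10.00 with SMX and 9.97, 9.61 and 9.28 in the control. The lowest array with sucrose was 0.68 above the highest without it.

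Group means of AT3G12290 were 11.02 ± 0.27 with sucrose plus SMX, 11.02 ± 0.3 with sucrose, 9.53 ± 0.47 with SMX and 9.62 ± 0.34 in the control (SD, n = 3 each). The sucrose difference was 1.40 (SE 0.28) without SMX, a 2.63-fold change with a 95% interval of 1.69 to 4.10, and 1.50 (SE 0.28) with SMX, a 2.82-fold change (limma adjusted p = 0.00887 and 0.00396). Sucrose plus SMX exceeded the control by 1.40 (limma adjusted p = 0.00694). A larger absolute change with sucrose alone was found for 9.08% of all probe sets, against 19.3% for AT1G63660, 27.7% for AT2G35040 and 55.2% for AT1G16350. With the spike score the 3 differences of AT3G12290 shrank to 0.61, 0.57 and 0.62 (SE 0.476, 0.538 and 0.473), and with the actin score to 0.69, 0.63 and 0.64 (limma adjusted p from 0.613 to 0.726 over the 6 values).

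Across the 4 genes, 3 rose with sucrose alone, 3 with sucrose plus SMX against the control, and 4 with sucrose plus SMX against SMX. Over all probe sets, 11.9%, 13.5% and 16.2% rose in these contrasts and 23.5%, 27.2% and 32.5% were called in either direction. The first pair of contrasts share the control arrays, and the last 2 share the arrays with sucrose plus SMX. The median difference of the 4 genes was 0.80, 0.91 and 0.93, and the median of all probe sets was 0 in each. The F test over the 4 treatments called AT2G35040 (limma adjusted p = 0.00209), AT3G12290 (0.00392) and AT1G63660 (0.00973) but not AT1G16350 (limma adjusted p = 0.117), where 31.0% of all probe sets were called.

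**Figure D2:**
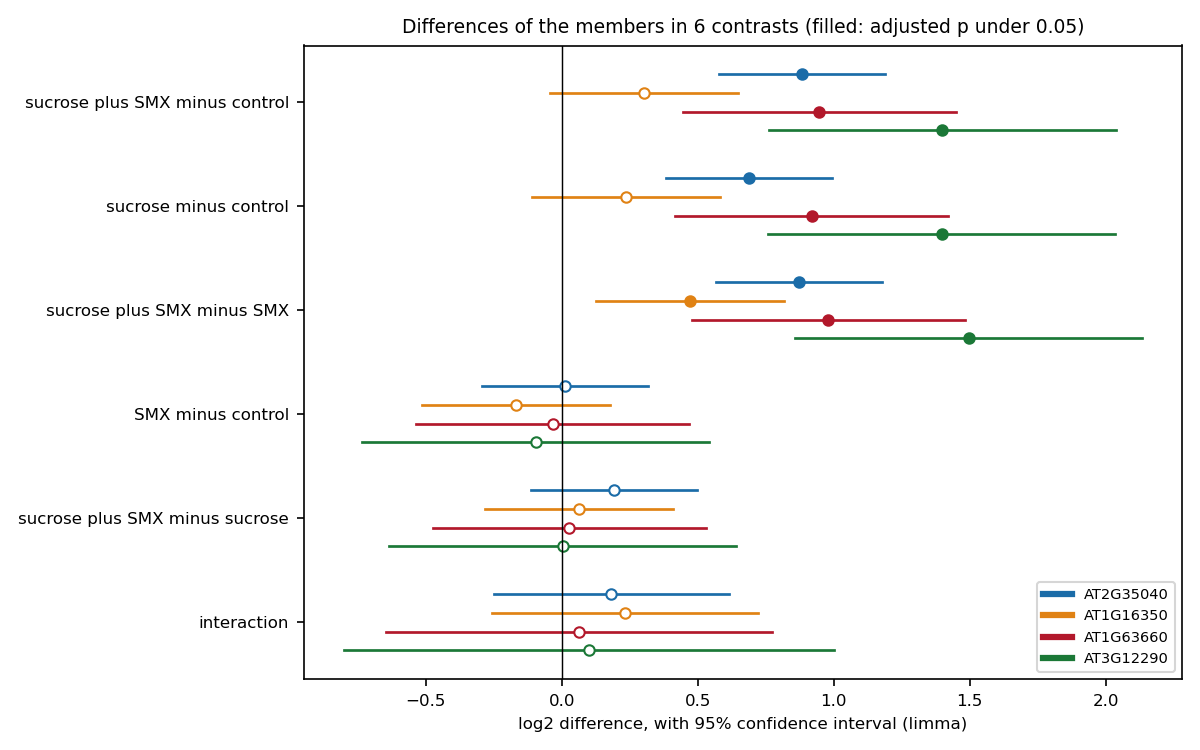
Log2 difference (x axis) of each of the 4 genes in 6 contrasts (rows), with 95% confidence intervals from limma and a filled point where the adjusted p was under 0.05. The 3 upper contrasts add sucrose and hold 10 filled points of 12, and the 3 lower ones, SMX without and with sucrose and the interaction, hold 0 of 12.

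Without a labelling covariate, the size of the sucrose difference was not the same in all 4 genes. For each pair, the per-array gap between the 2 log2 values was compared between arrays with and without sucrose by an exact two-sided permutation test within each SMX level (400 arrangements, smallest possible p 0.005), adjusted over the 6 pairs. AT3G12290 changed by 1.09 more than AT1G16350 (95% interval 0.60 to 1.59; exact permutation adjusted p = 0.03) and by 0.67 more than AT2G35040 (0.14 to 1.19; exact permutation adjusted p = 0.03). AT1G16350 changed less than AT1G63660, by 0.60 (0.076 to 1.12; exact permutation adjusted p = 0.045), and less than AT2G35040, by 0.43 (0.19 to 0.67; exact permutation adjusted p = 0.03). AT3G12290 and AT1G63660 did not differ past the threshold (0.50, −0.13 to 1.12; exact permutation adjusted p = 0.108), nor did AT1G63660 and AT2G35040 (0.17, −0.21 to 0.54; exact permutation adjusted p = 0.265). In the order of the differences, neighbouring genes were told apart only between AT2G35040 and AT1G16350. The excess of AT3G12290 over AT1G16350 kept its call without any single array. That of AT2G35040 over AT1G16350 missed the threshold without sucrose replicate 2 or 3 (0.41 each; exact permutation adjusted p = 0.05 and 0.06). That of AT3G12290 over AT2G35040 missed it without sucrose plus SMX replicate 1 or 2, any sucrose replicate, or SMX replicate 1 or 2 (exact permutation adjusted p from 0.05 to 0.07). That of AT1G63660 over AT1G16350 missed it without any of 10 arrays, all but SMX replicate 3 and control replicate 3 (exact permutation adjusted p from 0.05 to 0.0975). The order of sizes did not hold with a labelling covariate in a linear model of the gap, tried after the data were seen. With the spike score the sucrose difference of AT3G12290 minus that of AT2G35040 was −0.15 (95% interval −1.54 to 1.25), and minus that of AT1G63660 it was −0.65 (−2.19 to 0.90). Its excess over AT1G16350 was 0.29 (−1.0 to 1.58), while that of AT2G35040 over AT1G16350 was 0.44 (−0.28 to 1.17) and that of AT1G63660 over AT1G16350 was 0.94 (−0.60 to 2.48). With the actin score the 4 gaps called above were 0.13 to 0.40, and with either score the 95% interval of each of the 6 gaps included 0.

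SMX left no called difference in any of the 4 genes. For SMX alone against the control the log2 differences were 0.0098 for AT2G35040 (95% interval −0.30 to 0.31), −0.17 for AT1G16350 (−0.51 to 0.18), −0.034 for AT1G63660 (−0.54 to 0.47) and −0.097 for AT3G12290 (−0.73 to 0.54). The intervals therefore leave room for a 1.24-fold rise of AT2G35040 and for a 1.46-fold rise of AT3G12290. They also leave room for a fall, to 0.81-fold for AT2G35040, 0.70-fold for AT1G16350, 0.69-fold for AT1G63660 and 0.60-fold for AT3G12290. The limma adjusted p was 0.821 for AT1G16350 and 1 for the other 3 genes, and 0.0835% of all probe sets were called.

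Adding SMX to sucrose gave differences of 0.19 for AT2G35040 (95% interval −0.11 to 0.50), 0.064 for AT1G16350 (−0.28 to 0.41), 0.028 for AT1G63660 (−0.47 to 0.53) and 0.0029 for AT3G12290 (−0.63 to 0.64), each with a limma adjusted p = 1. Here 0.189% of all probe sets were called, 43 probe sets, against 28 with the replicate number as a block. That block changed no call of the 4 genes. The 3 arrays of AT2G35040 with sucrose plus SMX lay above the 3 with sucrose, as they did for 4.64% of all probe sets, and its unadjusted limma p was 0.187. The interaction, the SMX difference with sucrose minus that without it, was 0.18 for AT2G35040 (−0.25 to 0.61), 0.23 for AT1G16350 (−0.26 to 0.72), 0.062 for AT1G63660 (−0.65 to 0.77) and 0.099 for AT3G12290 (−0.80 to 1.0), with limma adjusted p from 0.902 to 1 and 0.0703% of all probe sets called. In these 3 contrasts 0 of the 4 genes had an unadjusted limma p under 0.05. Of the variation of AT2G35040 over the 12 arrays, sucrose took 86.5% of the sum of squares, SMX 1.44% and the spread between replicates 10.9%. The sucrose share was 86.0% for AT3G12290, 81.2% for AT1G63660 and 52.2% for AT1G16350, whose replicates took 41.0%. These shares were computed without a labelling covariate.

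The measured genes of the rest of the pathway were called in both directions with sucrose. Of 80 further genes in 7 lists of nucleotide and folate metabolism, 24 could be matched to a probe set of 1 gene. Among them, AT2G34890 and AT1G69190 lay at the floor, with group means of 2.12 to 2.13 and 2.12 to 2.17. AT2G35390 and AT4G17360 lay near it, with group means of 2.59 to 2.88 and 2.20 to 2.63. Such probe sets could hardly read lower, but they stayed in the counts and the median. With sucrose plus SMX against SMX, 5 of the 24 rose, 7 fell and 12 were not called. Over all probe sets 16.2% rose there and 32.5% were called in either direction. The counts of single lists given below for that contrast stand beside the same shares. With sucrose alone against the control, 3 rose and 6 fell, and with sucrose plus SMX against the control 4 rose and 6 fell. In these 2 contrasts 11.9% and 13.5% of all probe sets rose, and 23.5% and 27.2% were called in either direction. For sucrose alone, the fit of only the arrays compared called 0 higher and 2 lower. The fit of probe sets with a mean log2 value above 4 called 6 higher and 6 lower there. The 3 rises with sucrose alone became 1 without sucrose replicate 3, control replicate 2 or control replicate 3, where both PYRB and 5-FCL lost their calls, and 5 without control replicate 1. With either labelling score limma called 0 of the 24 in each of these 3 contrasts, where 4 to 6 of them had an unadjusted p under 0.05. The share of all probe sets called in each score fit is not given here, and that with such a p was not counted. Without a score, 15, 13 and 14 of the 24 had one, against 41.5%, 35.5% and 37.7% of all probe sets. The median difference of the 24 was −0.019, −0.017 and −0.019 in these contrasts. For SMX alone, for SMX added to sucrose and for the interaction, limma called none. There 3, 1 and 2 of the 24 had an unadjusted p under 0.05. Over all probe sets 6.64%, 5.52% and 6.12% had one. Without SMX replicate 2, limma called 1 of the 24 for SMX alone.

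**Figure D3:**
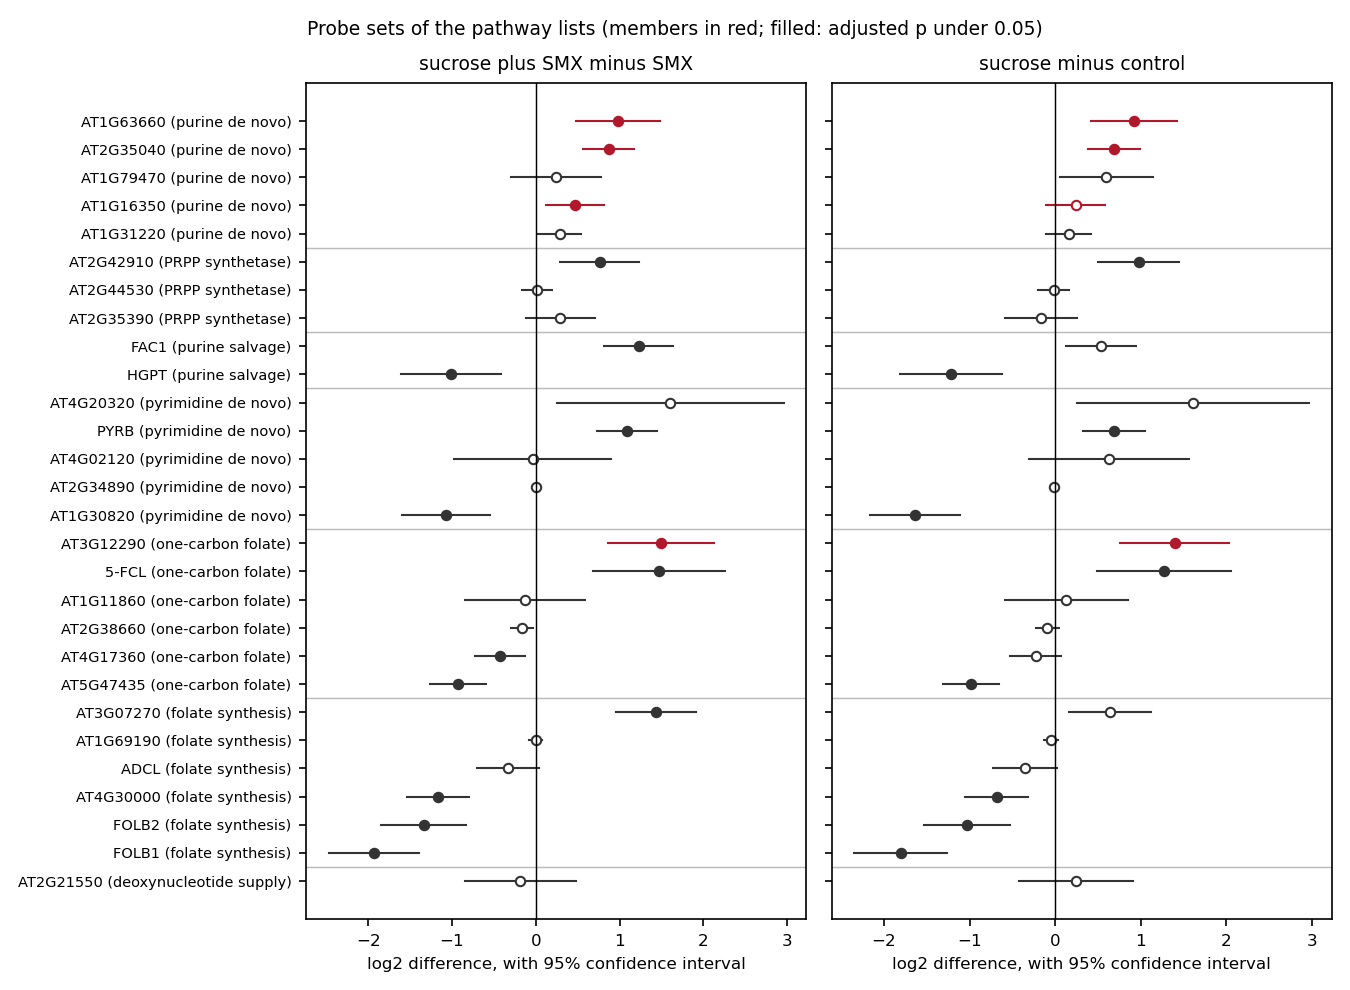
Log2 difference with 95% confidence interval (x axis) of all 28 measured probe sets of the 7 pathway lists (rows), for sucrose plus SMX minus SMX (left) and sucrose minus control (right). The 4 genes followed here are in red, and filled points have an adjusted p under 0.05. All 5 purine de novo points lie above 0 in both panels, where the median of all probe sets is 0, while the folate synthesis list has points on both sides. The 5 include AT2G35040, AT1G16350 and AT1G63660, chosen with earlier results known, and the other 2 are called in neither panel.

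Of the 17 purine de novo genes 5 were measured, and the 2 that are not among the 4 genes above were called in no contrast with all 12 arrays. These are AT1G79470 and AT1G31220. For sucrose alone, and for sucrose plus SMX against the control, 11 of 12 fits without a single array called neither, and the remaining fit called 1. AT1G31220 encodes GAR transformylase, the earlier enzyme of the pathway that uses the 10-formyl folate. AT1G31220 averaged 6.56 ± 0.17 with sucrose plus SMX, 6.50 ± 0.19 with sucrose, 6.27 ± 0.11 with SMX and 6.34 ± 0.067 in the control (SD, n = 3 each). Its difference was 0.29 (SE 0.114) for sucrose plus SMX against SMX (limma adjusted p = 0.0894) and 0.16 for sucrose alone (limma adjusted p = 0.372).

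Upstream, AT2G42910, 1 of 3 measured PRPP synthetases, which make the phosphoribosyl donor, rose by 0.76 (SE 0.207) with sucrose plus SMX against SMX (limma adjusted p = 0.0216), and the other 2 were not called. The call ended without sucrose plus SMX replicate 1 or 2 or SMX replicate 1 or 2 (limma adjusted p from 0.0541 to 0.0735) and after quantile normalization (0.0588). Of 9 purine salvage genes only 2 were measured, and 1 rose and 1 fell with sucrose plus SMX against SMX. FAC1, the AMP deaminase that returns AMP to IMP, rose by 1.23 (SE 0.179), to 9.24 ± 0.14 with sucrose plus SMX against 8.01 ± 0.22 with SMX (SD, n = 3; limma adjusted p = 0.00128). HGPT, which recycles hypoxanthine and guanine, had a difference of −1.01 (SE 0.262) in that contrast (limma adjusted p = 0.0178), a call that ended without sucrose plus SMX replicate 2 or 3 or SMX replicate 3 (limma adjusted p from 0.0521 to 0.059).

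Of 11 pyrimidine de novo genes 5 were measured, AT2G34890 at the floor among them, with 1 called rise and 1 called fall. PYRB, aspartate transcarbamoylase, rose by 1.09 (SE 0.159), and AT1G30820, a CTP synthase, fell by 1.07 (SE 0.229) with sucrose plus SMX against SMX (limma adjusted p = 0.00128 and 0.00726). AT4G20320 of the same pyrimidine list was not called, although it read 1.60 higher (SE 0.595; limma adjusted p = 0.0714) in that contrast. Its arrays ranged from 5.11 to 5.40 with sucrose plus SMX and from 2.26 to 4.68 with SMX. With sucrose alone its difference was 1.61 (SE 0.595), also not called (limma adjusted p = 0.0864). The 1 measured gene of deoxynucleotide supply, AT2G21550, was not called.

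Around AT3G12290, 6 of 20 genes of one-carbon folate metabolism were measured, and 2 rose and 2 fell with sucrose plus SMX against SMX. 5-FCL, which recycles 5-formyltetrahydrofolate, rose by 1.47 (SE 0.344; limma adjusted p = 0.0111). AT5G47435, a 10-formyltetrahydrofolate deformylase, which removes the formyl group, fell by 0.93 (SE 0.144), to 10.57 ± 0.081 with sucrose plus SMX against 11.50 ± 0.084 with SMX (SD, n = 3; limma adjusted p = 0.00167). AT4G17360, the other measured deformylase, fell by 0.43 (SE 0.131; limma adjusted p = 0.0355) near the floor, at 2.12 to 2.33 with sucrose plus SMX against 2.34 to 2.78 with SMX. That call ended without any of 7 arrays (sucrose plus SMX replicate 1 or 3, any sucrose replicate, or SMX replicate 2 or 3; limma adjusted p from 0.0515 to 0.116) and after quantile normalization (0.164). AT2G38660, a second methylenetetrahydrofolate dehydrogenase, was 7.33 ± 0.012 with sucrose plus SMX and 7.50 ± 0.14 with SMX (SD, n = 3) and was not called (−0.16, limma adjusted p = 0.055).

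Of 15 folate synthesis genes 6 were measured, and 1 rose and 3 fell in the same contrast. AT3G07270, GTP cyclohydrolase I, which draws GTP into folate synthesis, rose by 1.43 (SE 0.21; limma adjusted p = 0.00128). FOLB1, a dihydroneopterin aldolase, had a difference of −1.93 (SE 0.236), and AT4G30000, a gene of the SMX target enzyme, had −1.17 (SE 0.161; limma adjusted p = 0.000595 and 0.00101). With a labelling score as covariate limma called none of the 11 genes of the lists given above as called in this contrast (spike score, adjusted p 0.24 to 1; actin score, adjusted p 0.207 to 1), but the size left differed. Giving the spike-score value before the actin-score value, AT3G07270 had 1.25 and 1.15, 5-FCL had 1.20 and 1.18, and AT4G30000 had −1.0 and −0.95. FOLB1 had −1.19 and −1.43. FAC1 had 0.52 and 0.48, PYRB 0.56 and 0.51, and AT5G47435 −0.40 and −0.27. HGPT was close to 0, at −0.057 and −0.075, and AT1G30820 had −0.24 and −0.44. AT2G42910 had 0.24 and 0.55, and AT4G17360 had −0.055 and −0.38.

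The probe sets of 1 gene with the most similar course over the 12 arrays were found by the root mean square difference of centred log2 values, among those with a mean of at least 5. For AT2G35040 these were AT5G23900 (0.13), AT3G27230 (0.14) and AT5G27850 (0.14), against a root mean square of 0.42 for AT2G35040 itself around its mean. AT5G23900 and AT5G27850 encode proteins of the large ribosomal subunit. For AT1G63660 they were AT3G02360, a 6-phosphogluconate dehydrogenase (0.13), AT1G31910, a phosphomevalonate kinase (0.15), and DI21 (0.19), against 0.53 for the gene itself. For AT3G12290 they were AT4G39280, a phenylalanyl-tRNA synthetase subunit (0.17), AT4G29100 (0.18) and AT1G76550, a subunit of pyrophosphate-dependent phosphofructokinase (0.19), against 0.78. For AT1G16350 they were AT4G26650 (0.091), AT5G36230 (0.097) and AT5G49220 (0.10), against 0.24. All of these values come from the same 12 arrays and share their labelling, and 6 to 9 of the 12 named neighbours were found again when a single array was left out.

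Among the 6 arrays without sucrose, the labelling score and the 4 genes could be set side by side within a treatment. SMX replicate 2 had the highest spike score of them, 7.45, and the highest SMX value of AT2G35040 (9.26) and AT1G16350 (9.53) and the lowest of AT3G12290 (9.06). Control replicate 1 had the lowest spike score, 3.95, and the highest control value of AT2G35040 (9.30), AT1G16350 (9.74) and AT3G12290 (9.97) but not of AT1G63660. The part of labelling in the sucrose differences was not tested beyond the covariate fits (no array without sucrose had a score as low as any with it).

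**Figure D4:**
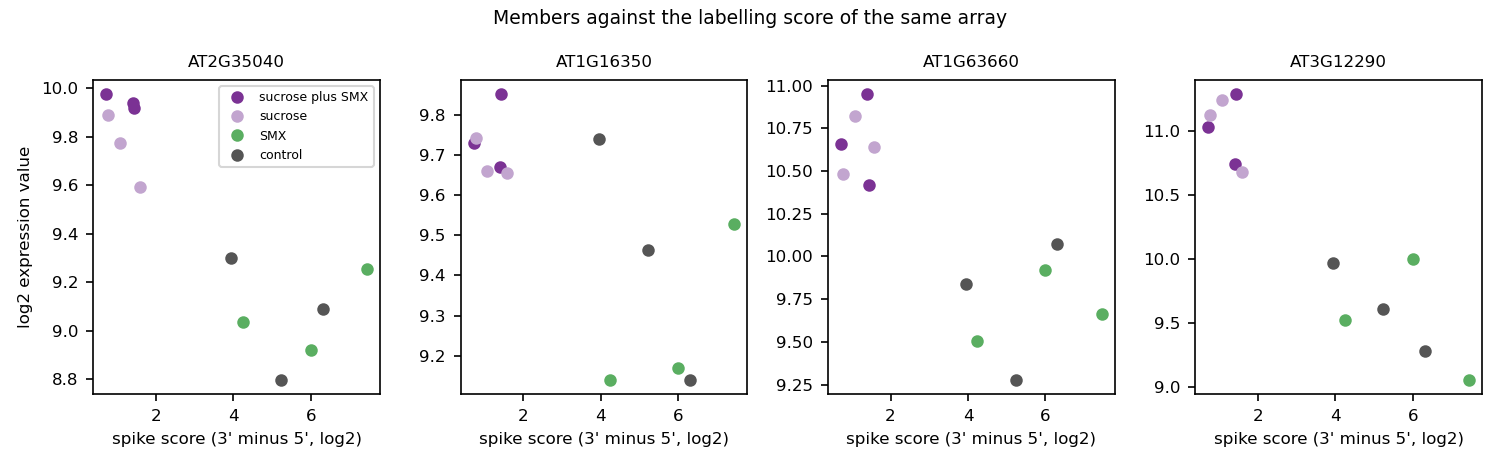
Log2 expression value (y axis) of each of the 4 genes against the spike score of the same array (x axis, log2 difference of 3′ and 5′ control probe sets), 1 point per array coloured by treatment. The 6 arrays with sucrose lie between 0.72 and 1.58 on the score and the 6 without between 3.95 and 7.45, with no array in between.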

How the data were processed

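Per the submitters' processing notes the deposited log2 values came from GCRMA and limma, with neither versions nor order of steps given. Their log base, unstated in the table, was taken as 2 from the range. RNA came from an RNeasy kit and was labelled with biotin in one cycle, per the labels' protocols. The 64 Affymetrix control probe sets were left out of the tests, leaving 22746. Probe sets were paired with genes through the platform annotation and, by gene ID, the TAIR10.1 annotation: 13513 had 1 gene, 503 several and 8730 none. Sequences and genome positions were not used here. All 12 arrays entered 1 fit with 4 group means (limma 3.58.1, R 4.3.3, lmFit and eBayes). Calls are two-sided at a Benjamini-Hochberg adjusted p under 0.05 over all probe sets of a contrast, and every adjusted p given for limma is of this kind. Fits were checked on simulated data.

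The spike score used the DapX, LysX and PheX probe sets and the actin score the r2-At-Actin probe sets. The genes and lists were chosen with earlier results of these data known. Named were the 4 genes, up to 3 called genes with the smallest p per list, and the 3 most similar probe sets per gene. AT1G79470, AT1G31220, AT4G17360, AT2G38660, AT2G21550, AT4G20320, AT2G34890, AT1G69190 and AT2G35390 were named after their values were seen. With 3 arrays per treatment, the number of arrays limits the precision. Deviations from the group means correlated over 0.1 in all 3 same-numbered pairs of sucrose plus SMX with sucrose (0.115 to 0.227), so there the numbers were taken as pairs and the block is given. In the other 5 pairs of treatments 0 to 2 of 3 did (8 of 18 pairs in all, range −0.395 to 0.227), and the numbers were not taken as pairs. Alternatives were the replicate number as a block, 2 normalizations, 2 filters on low values, probe sets of 1 gene, the compared arrays alone, a trended prior, 2 labelling covariates and leaving out each array. A labelling score in the gaps and the block in the 6 arrays with sucrose were added after the data were seen.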

Additional observations from a re-analysis of the deposited data

How the results depend on the processing

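The sucrose differences kept their sign for all 4 genes under every alternative run. A labelling covariate ended every call of these genes, and the SEs given above for the spike score were larger than without it. Over the alternatives that keep all arrays per treatment, far fewer of all probe sets could be called. For sucrose alone the lowest count was 65, against 5336 in the main fit. For sucrose plus SMX it was 287 against 6180 with the control as reference and 138 against 7384 with SMX. The lost calls do not tell sucrose from labelling, since neither score overlapped between arrays with and without sucrose. With the spike score, AT2G35040 was 0.84, 0.65 and 0.83 for sucrose plus SMX against control, sucrose against control and sucrose plus SMX against SMX; AT1G63660 was 1.21, 1.18 and 1.29, AT3G12290 was 0.62, 0.61 and 0.57, and AT1G16350 was 0.41 in the last contrast. With the actin score the same values were 0.64, 0.46 and 0.59 for AT2G35040, 0.67, 0.66 and 0.66 for AT1G63660, 0.64, 0.69 and 0.63 for AT3G12290, and 0.36 for AT1G16350. The F statistics of AT2G35040, AT1G63660 and AT3G12290 were then 3.25, 2.65 and 0.61 with the spike score and 2.31, 0.94 and 0.86 with the actin score. When only the arrays compared were fitted, 4 calls ended with unchanged differences: AT1G63660 for sucrose plus SMX against control (0.95) and sucrose against control (0.92), AT2G35040 for sucrose against control (0.69) and AT1G16350 for sucrose plus SMX against SMX (0.47); fewer arrays enter that fit. Quantile normalization ended the call of AT1G16350 (0.35) and of its gap to AT1G63660 (−0.56, exact permutation adjusted p = 0.0675).

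Leaving out single arrays gave 0.69 to 1.09 for AT1G63660 with sucrose alone, and for AT1G16350 0.40 to 0.59 with sucrose plus SMX against SMX, 0.15 to 0.45 against control, and an F of 2.63 to 7.63, the last 2 called only without control replicate 1. The gap of AT2G35040 minus AT1G16350 was 0.36 to 0.51, that of AT2G35040 minus AT3G12290 was −0.82 to −0.50 and that of AT1G16350 minus AT1G63660 was −0.76 to −0.48 without single arrays. These tests have fewer arrangements than with all arrays. With the spike and actin scores, added after the data were seen, the gap of AT2G35040 minus AT1G16350 was 0.44 and 0.27, of AT2G35040 minus AT3G12290 0.15 (turned) and −0.13, of AT1G16350 minus AT1G63660 −0.94 and −0.40, and of AT1G16350 minus AT3G12290 −0.29 and −0.40.

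The replicate block changed no call of the 4 genes: AT1G63660 had a limma adjusted p = 0.00945 and AT2G35040 0.0231 for sucrose alone under the block, and 8 of 12 arrays matched best in another treatment to an array of their own number. In a blocked fit of only the 6 arrays with sucrose, added after the data were seen, limma called 0 probe sets for SMX added to sucrose (1744 with an unadjusted p under 0.05). Under the block FAC1 was also called for sucrose alone (limma adjusted p = 0.0406) and 5-FCL for sucrose plus SMX against control (0.0396), and AT4G17360 was not for sucrose plus SMX against SMX (0.0583). The filters, the trended prior, median centring and the fit of probe sets of 1 gene changed no call of the 4 genes either. The number of all probe sets called moved from 5336 for sucrose alone to between 65 and 6315 over the alternatives that keep all arrays per treatment and to between 3284 and 6399 without single arrays (over 1.5 times lower without control replicate 2 and sucrose replicates 2 and 3). For sucrose plus SMX against control it was 6180 (287 to 6898), against SMX 7384 (138 to 7984), for SMX alone 19 (0 to 21; 9 to 70 without single arrays), for SMX added to sucrose 43 (0 to 66; 26 to 52) and for the interaction 16 (1 to 21; 7 to 48). Values for AT4G17360, whose arrays lie near the floor, are not exact sizes.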
